A study of Mus musculus with 4 samples.

Results

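The 10 genes described here encode enzymes that build glycerolipids and triglyceride: Gpd1, Gpam, Agpat2, Agpat3, Lpin1, Lpin2, Lpin3, Mogat1, Dgat1 and Dgat2. They were chosen by name, as probe sets whose only gene symbol is one of these, and all 10 had a value among the 22180 named genes. Expression was measured in primary hepatocytes of male mice aged 2 months, either wild type (WT) or lacking Chrebp (KO, the gene Mlxipl). For 16 h the cells received serum-free medium, either plain (control) or containing 25 mM fructose. The design asks how the absence of ChREBP, a sugar-responsive transcription factor, alters the response to fructose. Each of the 4 combinations of genotype and medium was measured on 1 array, so no value has a spread between replicates and no test was possible. The labels do not say how many mice gave the cells, which part of Chrebp was deleted or in which tissues, and they name both primary hepatocytes and liver as the source of RNA.

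Triglyceride is made in the liver by stepwise addition of fatty acids to glycerol 3-phosphate. Gpd1 makes glycerol 3-phosphate in the cytosol, Gpam adds the first fatty acid at the outer mitochondrial membrane, and the Agpat enzymes add the next. Lipins remove the phosphate to give diacylglycerol, which also arises from monoacylglycerol through Mogat1. The Dgat enzymes then make triglyceride, which hepatocytes store in droplets or secrete. ChREBP and SREBP-1c, a transcription factor encoded by Srebf1, are known activators of lipid synthesis genes in this tissue.

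Values are log2 levels after robust multi-array averaging by the authors, and a difference of 1 is 2-fold. Genes are called detected where at least 1 of the arrays compared exceeds a background level of 4.76 (log2), set from olfactory receptor genes. Of the members, 9 were above it on all 4 arrays and Mogat1 on none. The targeted gene Mlxipl had log2 levels of 8.08 (control) and 8.43 (fructose) in WT, and 7.42 and 7.37 in KO. It was lower in KO but well above background there. Of 12 hepatocyte markers, 11 were above background on every array and Ass1 was not. With fructose 4 of the 11 were lower in WT and 1 in KO. Tat was higher by 2.22 in WT and 2.01 in KO, Cps1 by 1.41 and 1.40, and Hnf4a differed by -0.75 and -0.50. Of 6 measured cholangiocyte markers, Krt7, Krt19, Epcam and Cldn7 were not above background on any array, while Sox9 and Cldn3 were well above it on all 4, at no less than 9.39 and 10.07. Of 10 stellate cell markers, 6 were above it on no array, among them Lrat and Des, while Dcn, Acta2 and Col1a1 were above it on all 4 and Reln on both fructose arrays. Of 5 measured adipocyte markers, Adipoq, Plin1 and Lep were not above background on any array. Fabp4 and Cidec, the others of that list, were above it on all arrays and differed with fructose by 1.98 and 2.72 in WT and by 0.83 and 1.96 in KO. As a scale for what follows, the median absolute log2 difference over all detected genes was 0.28 for fructose in WT and 0.22 in KO. It was 0.11 between genotypes in control medium and 0.16 in fructose medium.

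With fructose, Gpam was lower and Lpin1, Lpin3 and Dgat1 were higher in both genotypes, while Gpd1 was lower in KO. Lpin2 was higher in both on its brighter probe set, but not in WT when its probe sets were averaged. In WT, 1 of 9 detected members was at least 2-fold lower, Gpam, and 0 were at least 2-fold higher. Over all 10814 detected genes the shares were 3.01% lower and 3.1% higher. In KO, 0 of 9 were past 2-fold, where 1.18% of 10752 detected genes were lower and 1.68% higher. The median log2 difference of the 9 members was -0.13 in WT and -0.14 in KO, against -0.03 and -0.00 over all detected genes. In each genotype 4 members were above 0 and 5 below. Of the 9 members, 7 differed in the same direction in both genotypes, which are compared on separate arrays, as did 78.4% of 10516 genes detected in both, so the members' share is close to that of all genes.

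**Figure D1:**
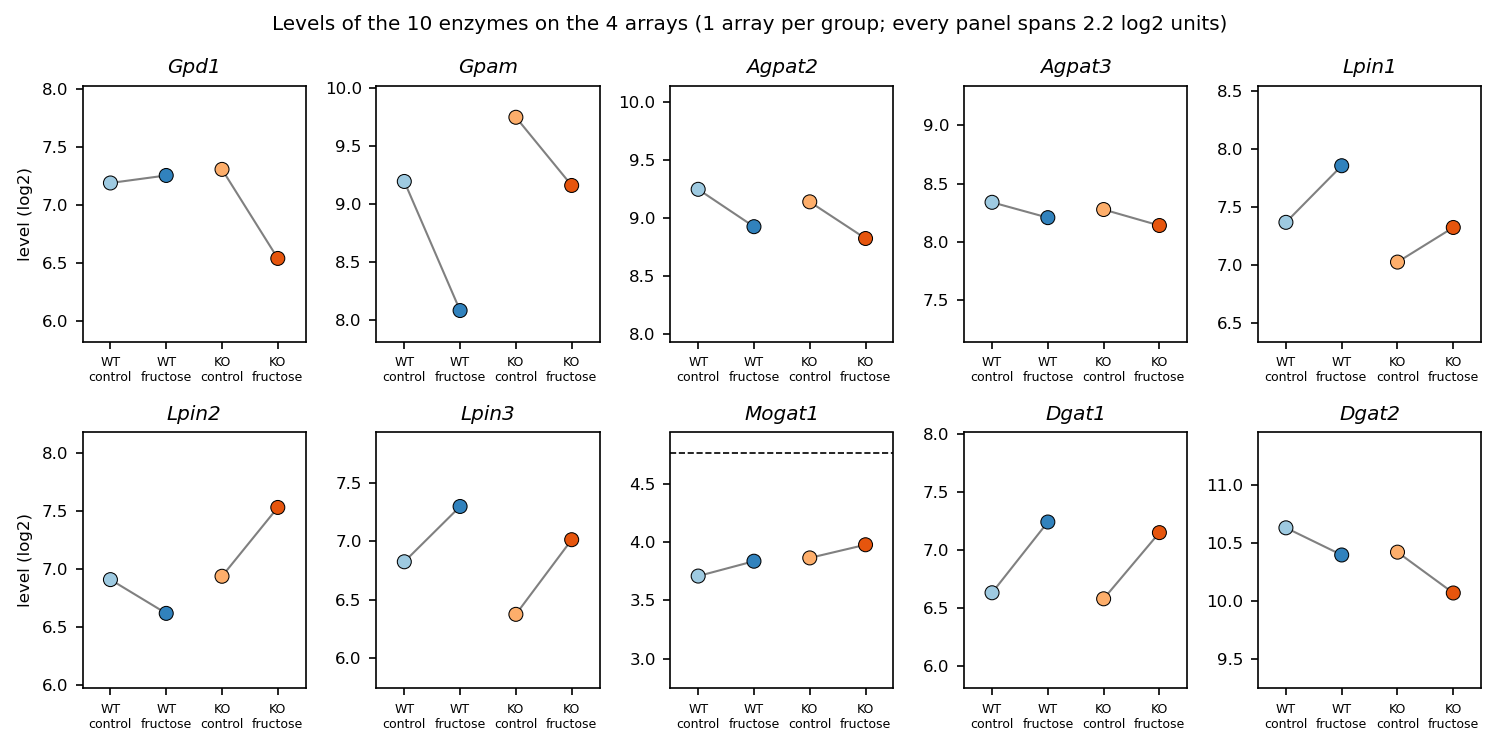
Log2 levels of the 10 enzymes (vertical axes, log2 units) on the 4 arrays (horizontal axis), with 1 point per array and lines joining control and fructose of a genotype. Gpam spans 1.66 log2 units, from KO control down to WT fructose, and Mogat1 stays below the background level (dashed line) on all arrays.

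Gpam, the mitochondrial acyltransferase of the committed step, varied most among the members. Its log2 level was 9.19 (control) and 8.08 (fructose) in WT, and 9.75 and 9.16 in KO. The WT fructose array was the lowest, and the KO fructose array lay close to WT control. With fructose it was 2.16-fold lower in WT (-1.11), where it ranked 226 of 10814 from the lowest difference up. In KO it was lower by a smaller amount (-0.59, rank 616 of 10752). Between genotypes it was 1.47-fold higher in KO in control medium (0.55) and 2.11-fold higher in fructose medium (1.08). Of all detected genes, 0.597% in control medium and 0.384% in fructose medium were as far or further in that direction. The fructose difference in KO minus that in WT was 0.52.

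A promoter window of Gpam is shown because this member differed most and is a textbook SREBP-1c target. Sequences are from RefSeq (GRCm38.p6), which held windows for 7 of the 10 members; Gpd1, Dgat1 and Dgat2 were not matched. The windows run from 250 bases before a start site to 50 after it, and some genes have several. Capitals mark matches to TCACCCCA, the core of the sterol regulatory element bound by SREBP, and to CCAAT, here as its reverse complement. Gpam has more than 1 window, and only the one printed here holds a match to either motif. The stretch runs from base -180 to base -1 before the start site, chr19:55127239-55127418, minus strand.
Gpam: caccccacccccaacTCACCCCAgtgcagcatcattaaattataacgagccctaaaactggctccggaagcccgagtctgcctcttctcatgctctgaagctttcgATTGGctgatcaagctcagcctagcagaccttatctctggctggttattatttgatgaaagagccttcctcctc
The TCACCCCA match starts at base -165, and 1.56% of 32851 windows hold it on either strand. The CCAAT match starts at base -74, and 37.4% of windows hold that motif. A match is a description of these letters, and binding was not measured.

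The genes with the pattern most like that of Gpam over the 4 arrays were Arhgap18, Ces1g, Gsta4, Nme1 and Crim1. Likeness was the Euclidean distance between log2 levels centred on each gene's own mean, among 11050 detected genes. Distances ran from 0.11 for Arhgap18 to 0.18 for Crim1. Each of the 5 was lower with fructose in WT, between -0.90 for Nme1 and -1.24 for Crim1. Each was higher in KO than in WT in fructose medium, between 1.01 and 1.14. Nme1 was below the background level on the WT fructose array (4.24), so both of its differences include a reading below background. The 5 were picked for likeness on these same arrays, so the directions they share with Gpam follow from that choice. With 4 arrays such likeness is a description only.

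Gpd1, the cytosolic glycerol 3-phosphate dehydrogenase, was low on the KO fructose array. Its mean log2 level over its 2 probe sets was 7.19 (control) and 7.25 (fructose) in WT, and 7.31 and 6.54 in KO. The KO fructose array was the lowest and the other 3 lay close together. The fructose difference was 0.06 in WT and -0.77 in KO, and the KO minus WT difference was 0.12 in control and -0.71 in fructose medium. The brighter probe set had levels of 9.32, 9.49, 9.43 and 8.30 in the same order. On it Gpd1 was 2.19-fold lower with fructose in KO (-1.13) and 2.28-fold lower in KO than in WT in fructose medium (-1.19). Of detected genes, taken as means over their probe sets, 0.735% and 0.468% were as far or further. For the mean of both Gpd1 probe sets these shares were 2.69% and 1.79%. The dimmer probe set, with levels of 5.06, 5.02, 5.18 and 4.78 in that order, lay near the background and differed by -0.40 and -0.24. Averaging the probe sets kept Gpd1 under 2-fold in both comparisons.

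Gpd2, the mitochondrial enzyme that oxidises glycerol 3-phosphate, differed with fructose in WT. Its log2 level was 6.75 (control) and 7.90 (fructose) in WT, and 6.72 and 6.75 in KO. The WT fructose array was the highest and the other 3 lay close together. Gpd2 was 2.22-fold higher with fructose in WT (1.15), against 0.04 in KO. The fructose difference in KO minus that in WT was -1.11 for Gpd2 and -0.83 for Gpd1 (-1.30 on its brighter probe set). In KO minus WT on fructose medium both dehydrogenases were lower. Their levels placed the difference on different arrays, the WT fructose array for Gpd2 and the KO fructose array for Gpd1.

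Of the genes listed with Gpd2 for the supply and use of glycerol 3-phosphate, only Tkfc was also past 2-fold, in the same comparisons. Of 11 listed, 9 were measured and 8 detected. In WT with fructose 2 of 8 were at least 2-fold higher, Gpd2 and Tkfc (1.28), and 0 were lower, against 3.1% and 3.01% of all detected genes. Tkfc phosphorylates glyceraldehyde from fructose. In KO 0 of 8 passed 2-fold, against 1.68% higher and 1.18% lower of all detected genes, with Tkfc at -0.68. Tpi1, which interconverts the triose phosphates, was at -0.07 in WT and -0.01 in KO. Khk, which phosphorylates fructose, differed by 0.80 in WT and 0.58 in KO, and Pgp, a phosphatase of glycerol 3-phosphate, by 0.35 and 0.44. The list's median was 0.33 in WT and -0.08 in KO, against -0.03 and -0.00 over all detected genes. In KO minus WT, 0 of 8 passed 2-fold in control medium, against 0.0373% higher and 0.196% lower of all detected genes. In fructose medium 2 were lower, Gpd2 (-1.14) and Tkfc (-2.08), against 0.739% of all detected genes. Gk, which acts on glycerol, was not analysed here.

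Agpat2 and Agpat3, which acylate lysophosphatidic acid, were slightly lower with fructose in both genotypes. Agpat2 had log2 levels of 9.24 (control) and 8.92 (fructose) in WT, and 9.14 and 8.82 in KO. Both fructose arrays were lower than both control arrays. Its fructose difference was -0.32 in WT and -0.32 in KO, and 23.8% and 17.7% of detected genes were as far or further below 0. Agpat3 had levels of 8.34, 8.21, 8.28 and 8.14 in the same order, the narrowest span of the detected members (0.20). Its fructose differences were -0.13 and -0.14, and 39.1% and 33% of genes were as far or further. These sizes are common among all genes. For both enzymes the difference of fructose effects was within 0.01 of 0 and its direction flipped for Agpat2 with a loess correction and for Agpat3 with median centring.

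**Figure D2:**
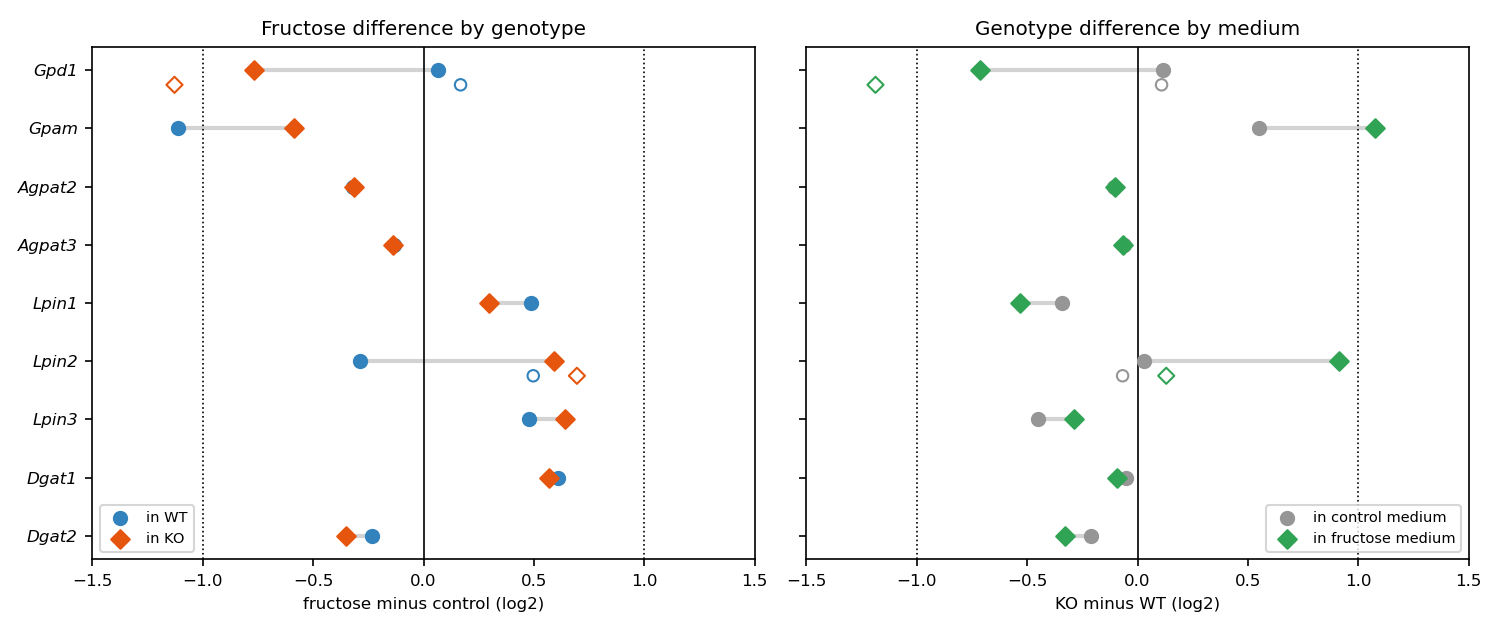
Log2 differences (horizontal axes) of the 9 detected members, fructose minus control by genotype on the left and KO minus WT by medium on the right. Filled symbols are means over probe sets, open symbols the brighter probe set of Gpd1 and Lpin2, and dotted lines mark 2-fold; Gpam is past the line in WT with fructose (-1.11) and in KO against WT in fructose medium (1.08).

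The lipins, phosphatidate phosphatases of which Lpin1 also acts as a nuclear coregulator, were higher with fructose, apart from the mean of Lpin2 in WT. Lpin1 had log2 levels of 7.37 (control) and 7.85 (fructose) in WT, and 7.02 and 7.32 in KO. WT fructose was the highest and KO control the lowest. Lpin1 was 1.40-fold higher with fructose in WT (0.49), where 12.7% of detected genes were as far or further. In KO it was 1.23-fold higher (0.30), where 18.8% were. Without fructose it was 1.27-fold lower in KO than in WT (-0.34), and with fructose 1.44-fold lower (-0.53). Of detected genes, 4.89% and 3.68% were as far or further below 0 in these genotype comparisons.

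Lpin3 had log2 levels of 6.82 (control) and 7.30 (fructose) in WT, and 6.37 and 7.01 in KO. As for Lpin1, the highest array was WT fructose and the lowest KO control. It was 1.39-fold higher with fructose in WT (0.48) and 1.56-fold in KO (0.64). Of detected genes, 13.2% and 5.09% were as far or further. Between genotypes Lpin3 differed by -0.45 in control and by -0.29 in fructose medium, where 2.39% and 12.1% of genes were as far or further.

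Lpin2 gave opposite directions on its probe sets for fructose in WT, while in KO both were higher with fructose. The brighter had log2 levels of 8.74 (control) and 9.24 (fructose) in WT, and 8.67 and 9.37 in KO, so both fructose arrays were higher. Its fructose difference was 0.50 in WT and 0.69 in KO, against 0.48 and 0.64 for Lpin3 and 0.49 and 0.30 for Lpin1. Its KO minus WT difference was -0.07 in control and 0.13 in fructose medium. The dimmer had levels of 5.08, 4.0, 5.20 and 5.69 in the same order and lay below background on the WT fructose array. Against the background level it was at least 1.24-fold lower with fructose in WT and at least 1.90-fold higher in KO than in WT in fructose medium. The mean of both was -0.29 for fructose in WT, 0.59 in KO and 0.91 for KO minus WT in fructose medium. These means include the reading below background on the WT fructose array. With probe sets raised to the background before averaging, an alternative added after seeing the data, the WT value turned to 0.09 and the KO minus WT value in fructose medium was 0.53. With the brighter probe set alone the WT value turned to 0.50 and the KO minus WT value in fructose medium was 0.13.

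**Figure D3:**
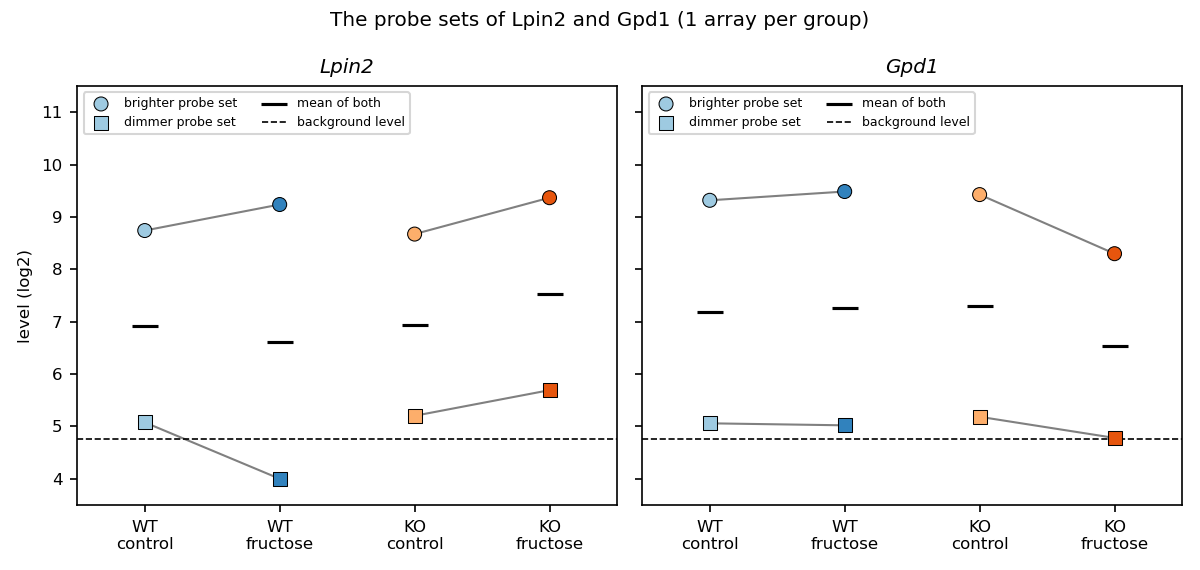
Log2 levels (vertical axis) of the brighter (circles) and dimmer (squares) probe sets of Lpin2 and Gpd1 on the 4 arrays, with their means (bars) and the background level of 4.76 (dashed line). The dimmer Lpin2 probe set reads 4.0 on the WT fructose array while the brighter is at 9.24 there, and both Gpd1 probe sets are lowest on the KO fructose array.

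Promoter stretches of Lpin2 and Lpin3 are shown because they hold CACGTG, the E-box in the element bound by ChREBP with its partner Mlx, and no window of another member did. Capitals mark the motif, which reads the same on both strands. For Lpin2 the stretch runs from base -60 to base -1 (chr17:71183472-71183531, plus strand), and for Lpin3 from base 11 to base 40 after the start site (chr2:160880680-160880709, plus strand).
Lpin2: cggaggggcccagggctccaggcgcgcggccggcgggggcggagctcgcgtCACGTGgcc
Lpin3: gcctgtttctgcCACGTGgctcacagctca
Of all windows, 7.15% hold CACGTG, and 2 of the 11 windows of the members do. Lpin2 has another window, which does not. An exact pair of CACGTG copies 5 bases apart, with no mismatch allowed, was in 0 of 32851 windows. As no gene had it, this search cannot tell whether members hold the element in a less exact form. With fructose, Lpin2 (brighter probe set) and Lpin3 were higher in both genotypes, as was Lpin1, which has no window with CACGTG. In KO minus WT, Lpin3 was at -0.45 in control and -0.29 in fructose medium, and Lpin1 at -0.34 and -0.53. Lpin2 was at -0.07 and 0.13 on its brighter probe set. Whether the CACGTG matches play a part in any of these differences was not tested.

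Dgat1 and Dgat2, unrelated enzymes that both add the last fatty acid, differed with fructose in opposite directions. Dgat1 had log2 levels of 6.63 (control) and 7.24 (fructose) in WT, and 6.58 and 7.15 in KO, with both fructose arrays above both control arrays. It was 1.52-fold higher with fructose in WT (0.61) and 1.48-fold in KO (0.57), and 8.88% and 6.58% of detected genes were as far or further. Genotype made little difference to Dgat1, with KO minus WT values of -0.05 in control and -0.09 in fructose medium. Dgat2 had levels of 10.63, 10.40, 10.42 and 10.07 in the same order, lowest in KO fructose. Its fructose difference was -0.23 in WT and -0.35 in KO, and its KO minus WT difference was -0.21 and -0.33. Of detected genes, between 9.5% and 30.5% were as far or further in these 4 comparisons.

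Mogat1, which acylates monoacylglycerol, had log2 levels of 3.71 (control) and 3.84 (fructose) in WT, and 3.87 and 3.98 in KO. All are below the background level, so no fold is given.

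Between genotypes, 0 of 9 detected members were past 2-fold in control medium, where 0.0373% of 10720 detected genes were higher in KO and 0.196% lower. In fructose medium 1 of 9 was at least 2-fold higher, Gpam, and 0 lower, against 0.543% and 0.739% of 10688 genes. The brighter probe set of Gpd1 would add 1 that was lower. The members' median was -0.06 in control and -0.10 in fructose medium, against -0.01 and 0.01 over all detected genes. Of the 9 members, 8 had the same direction in both media, as did 59.4% of 10358 genes detected in both, and Gpd1 was the exception. Lpin2 would be another on its brighter probe set. For the difference of fructose effects 0 of 9 members passed 2-fold, against 0.443% of 11050 genes higher and 0.588% lower.

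Macrophage and endothelial markers were mostly lower in KO in both media. Of 13 macrophage markers, 9 of the 10 detected were lower in KO in control medium and 10 of 11 in fructose medium, with medians of -0.53 and -0.56. Their mean log2 level was 6.14 (control) and 6.09 (fructose) in WT, and 5.65 and 5.63 in KO, and Vsig4 and C1qc were not above background. Of 8 detected endothelial markers, 8 and 7 were lower in KO, with medians of -0.47 and -0.37. The mean of the 11 measured ran from 5.91 in WT control to 5.49 in KO fructose, and Stab2, Clec4g and Ptprb were not above background. Stellate cell markers had medians of -0.02 over 3 detected genes and 0.02 over 4, and their mean level ran from 4.48 in KO control to 4.58 in KO fructose. The 2 detected cholangiocyte markers had medians of -0.28 and 0.26, with a mean over the 6 measured between 5.97 and 6.04. Both detected adipocyte markers, Fabp4 and Cidec, were lower in KO in fructose medium, with medians of -0.01 in control and -0.96 in fructose medium. Adipoq, Plin1 and Lep were not above background. The mean over the 5 measured was 5.36 in WT and 4.86 in KO in fructose medium. Of 11 detected hepatocyte markers, 5 were lower in KO in control medium and 1 in fructose medium, with medians of 0.00 and 0.13. The part of other cells in the members' genotype differences was not tested, and in bulk RNA fewer cells of a type and less RNA per cell cannot be told apart.

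**Figure D4:**
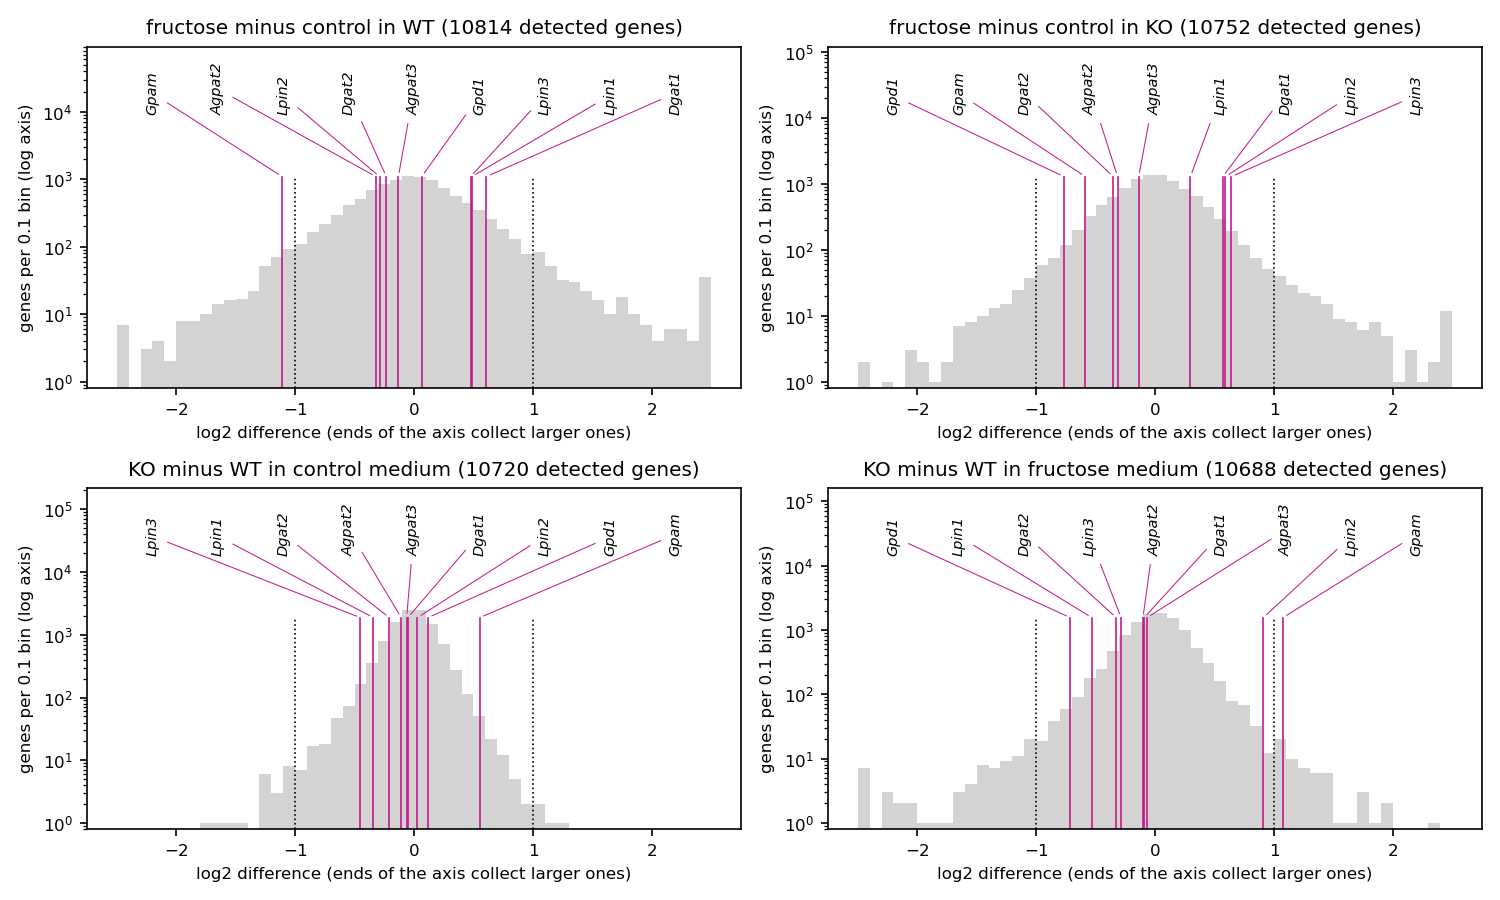
Number of detected genes per 0.1-wide bin of log2 difference (grey, log vertical axis) in 4 comparisons, with the 9 detected members as vertical lines and 2-fold as dotted lines. Most members lie in the body of the distribution, and Gpam lies past 2-fold at -1.11 in WT with fructose and at 1.08 in KO against WT in fructose medium.

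Of 13 related enzymes of acylation and phosphate removal, 9 were detected, and 0 passed 2-fold in any of the 5 comparisons. Over all detected genes, the share past 2-fold in 1 direction ran from 0.0373% to 3.1%, so 0 of 9 is close to that of all genes. Their medians with fructose were -0.09 in WT and -0.07 in KO. Plpp2, a lipid phosphate phosphatase, was at -0.61 in WT and -0.30 in KO, and Lclat1, a lysocardiolipin acyltransferase, at -0.55 and -0.52. Lpgat1, a lysophospholipid acyltransferase, was at -0.44 and -0.26, and Agpat5 at -0.03 and 0.26. Gpat3 and Gpat4, which catalyse the Gpam step in the endoplasmic reticulum, differed with fructose by -0.09 and 0.11 in WT and by -0.06 and -0.07 in KO. Neither was as far below 0 as Gpam in WT (-1.11) or KO (-0.59).

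Acyl-CoA synthetases, which activate fatty acids for these steps, also had 0 of 6 detected genes past 2-fold in any comparison. The shares of all detected genes were the same 0.0373% to 3.1%, so 0 of 6 is close to them too. Their fructose medians were -0.07 in WT and -0.16 in KO. Acsl5 was at -0.02 and -0.22, Acsf2 at -0.12 and -0.45, Slc27a5 at -0.33 and -0.16, and Slc27a4 at -0.24 and -0.17. Acsl1 was not analysed here. The phospholipid branches, which use phosphatidate or diacylglycerol made by the members, had 0 of 19 detected genes past 2-fold with fructose in WT and 0 of 18 in KO. Over all detected genes 3.1% were higher and 3.01% lower in WT, and 1.68% and 1.18% in KO. The medians of these branches were -0.20 and -0.17. Within them Crls1, the cardiolipin synthase, was at 0.79 in WT and 0.45 in KO, and Selenoi, an ethanolamine phosphotransferase, at 0.66 and 0.56. The kinases Etnk1 (ethanolamine) and Chka (choline) were at -0.75 and -0.66 in WT and at -0.33 and -0.28 in KO.

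Among 14 regulators of the members, 13 were detected. With fructose in WT 2 were at least 2-fold higher, Srebf1 (1.02) and Insig1 (1.35), and 1 lower, Pparg (-1.03), against 3.1% and 3.01% of all detected genes. In KO 1 was higher, Insig1 (1.18), and 0 lower, against 1.68% and 1.18%. Srebf1 had log2 levels of 7.36 (control) and 8.38 (fructose) in WT, and 7.10 and 7.37 in KO. It was highest on the array where Gpam was lowest. Pparg, a nuclear receptor that promotes fat storage, had levels of 6.94, 5.91, 7.20 and 6.24 in the same order, lower on both fructose arrays, with -0.96 in KO. Insig1 holds SREBP precursors in the endoplasmic reticulum. In KO minus WT, 0 of 13 passed 2-fold in control medium, against 0.0373% higher and 0.196% lower of all detected genes. In fructose medium 2 were lower, Srebf1 (-1.01) and Mlxipl (-1.06), against 0.739%. Mlxipl is the targeted gene, so its place in this count is set by the design, and Srebf1 was only just past 2-fold.

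**Figure D5:**
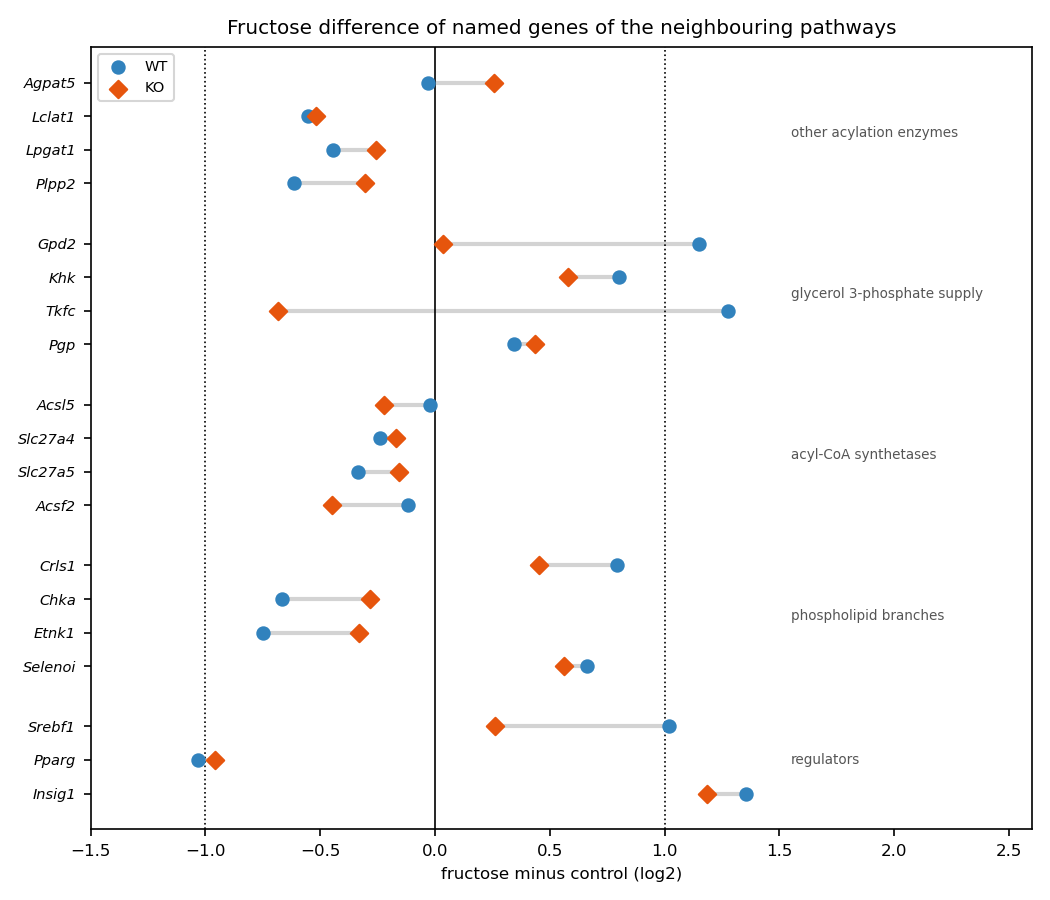
Fructose minus control differences (log2, horizontal axis) in WT (circles) and KO (diamonds) for the genes named from each related list, with dotted lines at 2-fold. Gpd2 (1.15) and Tkfc (1.28) are past 2-fold in WT and not in KO, while Insig1 is past it in both genotypes.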

How the data were processed

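The authors deposited a log2 level for each probe set, measured on biotin-labelled cDNA of 400 ng total RNA per sample, per the labels. Per the submitters' processing notes, RMA and R 3.4.0 were used. RMA equalises the distributions of arrays, so a shift shared by all genes cannot be seen. No array annotation version or genome build is stated in the sources used here.

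Of 41345 probe sets, 23521 had 1 gene symbol, 1814 several and 16010 none. Probe sets of a gene were averaged in log2, giving 22180 genes. Of the members, 8 had 1 probe set and 2 had 2. Symbols were updated by Entrez number through RefSeq. Background was the 95th percentile of the means of 1105 olfactory receptor genes. Differences were taken for 5 comparisons in Python 3.11.15, and genes were counted at 2-fold. The comparisons with a group in common share its array. Having 4 arrays limits all precision. The members and lists were chosen with earlier results of these data known. Named from each list were the 4 detected genes with the largest difference in any of 4 comparisons, and the 5 nearest patterns to the member with the widest span. Other genes named from the lists and markers were chosen after their values were seen. Counting was tested on simulated data.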

Additional observations from a re-analysis of the deposited data

Results flagged for a closer look

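Among the detected members and the genes named by size from the related lists, 5 had opposite directions of the fructose difference in WT and KO. Each group was 1 array, and the difference was not tested. Over all genes detected in both comparisons, 78.4% had the same direction. Other genes named here were opposite too, such as Gpat4 (0.11 in WT and -0.07 in KO) and the marker Dcn (-0.18 and 0.11). Among the members, Lpin2 was at -0.29 in WT and 0.59 in KO, a difference of effects of 0.88, and 0.20 on its brighter probe set, where both genotypes were above 0. With its probe sets raised to the background before averaging, the WT value was 0.09 and the difference of effects 0.50, with both genotypes again above 0. Gpd1 was at 0.06 in WT and -0.77 in KO, a difference of -0.83, and on its dimmer probe set the WT value was -0.04, so that both genotypes were below 0. Of the related genes, Tkfc had a difference of effects of -1.96, Mlxipl of -0.40 and Agpat5 of 0.28. For 3 of the 5 genes the smaller of the fructose differences was close to 0: Gpd1 in WT, Agpat5 in WT (-0.03) and Mlxipl in KO (-0.05). These are well under the median absolute difference over all detected genes, 0.28 in WT and 0.22 in KO.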

How the results depend on the processing

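No paired analysis was possible because each group is 1 array, and for the same reason no replicate could be left out. Counts of members past 2-fold were the same as reported with a loess correction (span 0.3), quantile normalization run again, centring on array medians, dim genes kept in, a filter 1 log2 unit stricter, and values raised to the background. The filter and background settings act on dim readings. The 9 detected members were above background on all arrays, so those settings could not change their differences. At 1.5-fold with fructose, 1 member was higher and 1 lower in WT, against 9.46% and 10.8% of all detected genes. In KO 2 were higher and 2 lower, against 6.11% and 5.75%. In KO against WT in fructose medium 2 were higher and 1 lower, against 2.45% and 2.86%. For the difference of effects 1 was higher and 1 lower, against 2.86% and 2.6%. At 3-fold, 0 members passed, so Gpam was lost in both comparisons. With the brightest probe set per gene, Gpd1 made 1 member lower with fructose in KO, in KO against WT in fructose medium and for the difference of effects. The shares of all detected genes that were lower there were 1.21%, 0.756% and 0.616%. With the dimmest probe set, chosen after seeing the data, Lpin2 made 2 members lower with fructose in WT, 2 higher in KO against WT in fructose medium and 1 higher for the difference of effects. The shares of all detected genes in those directions were 3.09%, 0.579% and 0.457%. Raising probe sets to the background before averaging, also added then, changed no count and turned Lpin2 in WT with fructose to 0.09. The 9 detected members gave 495 recomputed differences. Of these, 465 kept their sign and side of the threshold and moved by no more than the median absolute difference of all detected genes. The other 30 did not, 13 of them for Lpin2 and 10 for Gpd1. Many of the 465 were fixed in advance, so their number does not measure robustness. The filter settings left the members' values as they were. The choice of probe set changes nothing for a gene with 1, and another threshold can change only the side.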
